A study of Mus musculus with 13 samples.

Results

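Axon guidance ligands and receptors were described in the brains of mice with an activated, nuclear form of YAP1. The members were the protein-coding genes with mouse symbols of the Slit, Robo, semaphorin, plexin, neuropilin, ephrin, Eph, netrin, Unc5 and Dcc families, and 70 of the 48795 genes in the table met this rule. They fall into 36 ligands and 34 receptors. The table holds 3 Slit, 20 semaphorin, 8 ephrin and 5 netrin genes, and 4 Robo, 9 plexin, 2 neuropilin, 14 Eph, 4 Unc5 and 1 Dcc gene.

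RNA was sequenced from the right brain hemisphere, with olfactory bulb and cerebellum removed, at postnatal day 11. The nlsYAP5SA group (n = 5 mice) was heterozygous for NexCre and for the YAP5SAnls allele, a Cre-dependent YAP1 with mutated phosphorylation sites and a nuclear localisation signal. Its controls (n = 5) were littermates with the same YAP5SAnls allele and no Cre, and the background group (n = 3), named C57BL/6 here, was wild type and not from these litters. The control and nlsYAP5SA mice came from 2 matings, no source used here assigns a mouse to a litter, and the model has no term for it. All 3 groups had the strain background C57BL/6J. NexCre is an allele of Neurod6 that expresses Cre in precursors of forebrain excitatory neurons, so the transgene is switched on in that lineage, while each sample is a whole hemisphere. The totals were between 20871566 and 25524349 estimated counts per sample.

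Guidance cues steer growing axons and migrating cells by attraction or repulsion. Slits bind Robo receptors, and semaphorins bind plexins, with neuropilins as co-receptors for the secreted class. Netrins such as Ntn1 bind Dcc and Unc5 receptors. Ephrins bind Eph receptor tyrosine kinases and can signal back into the cell that carries them. Many of these genes remain expressed after axons have reached their targets, where they act in synapses, glia and blood vessels.

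The labels were checked first on Neurod6 and Yap1. Neurod6, which holds the Cre allele, was at 92.3, 110, 93.9, 98.5 and 91.5 CPM in control replicates 1 to 5, 55.2, 38.9, 48.1, 56.8 and 47.2 in nlsYAP5SA replicates 1 to 5 and 103, 92.5 and 88 in C57BL/6 replicates 1 to 3. All nlsYAP5SA samples lay below all others, with a log2 fold change of -0.98 ± 0.09 (SE, edgeR adjusted p = 2.7e-05) against the controls. Yap1 was at 20.3, 20, 20.7, 20.2 and 22.3 CPM in control replicates 1 to 5, 24.3, 26.6, 22.6, 24.3 and 23.2 in nlsYAP5SA replicates 1 to 5 and 21.6, 19.4 and 20.6 in C57BL/6 replicates 1 to 3. Each nlsYAP5SA sample lay above each control, with a log2 fold change of 0.23 ± 0.06 (SE, edgeR adjusted p = 0.0361), a call that was lost in 16 of 24 alternative settings. Whether reads of the transgene are counted under Yap1 is not given in the sources used here. Of the 5 genes listed for the cerebellum, Gabra6 and Pcp2 reached at most 3 and 8 counts in any sample, Cbln3 had 9 to 28, Barhl1 5 to 30 and Calb2, which interneurons also express, 1583 to 3115.

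Libraries differed in ways other than genotype. The labels do not give the sex of the mice. Summed CPM of 4 Y-linked genes was 91, 114, 129, 114 and 124 in control replicates 1 to 5, 0.0904, 0.0942, 130, 135 and 0.0937 in nlsYAP5SA replicates 1 to 5, and 119, 0 and 143 in C57BL/6 replicates 1 to 3. All controls thus carried Y-linked RNA, while nlsYAP5SA replicates 1, 2 and 5 and C57BL/6 replicate 2 did not, so that sex and genotype are partly confounded. Long genes also differed in level. In the fifth of genes with the longest exons, the median log2 deviation from the control mean was -0.18 in control replicate 1 and 0.13 in control replicate 3, -0.19 in C57BL/6 replicate 2 and 0.18 in C57BL/6 replicate 3, and between -0.04 and 0.12 in the nlsYAP5SA samples. The 19 members with over 9 kb of exons, a limit chosen after the values were seen, deviated by -0.27 and 0.20 in those controls and by -0.38 and 0.27 in those C57BL/6 samples. Ttr, a choroid plexus gene, was at 217, 0.822, 1.25, 2.14 and 129 CPM in control replicates 1 to 5, 258, 276, 138, 0.783 and 55.2 in nlsYAP5SA replicates 1 to 5, and 1.52, 158 and 239 in C57BL/6 replicates 1 to 3. High and low values occurred in every group. With Ttr as a covariate Ephb2 and Ntng2 were no longer called and Efnb2 was called higher. These properties of single libraries were not assigned to a cause.

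Against the controls, 22 of the 69 members tested were called in nlsYAP5SA mice, at an edgeR adjusted p of 0.05 or less, beside 10.8% of all 16315 genes tested. The members called higher were 10 (7.36% of all genes) and those called lower 12 (3.44% of all genes). Of the higher ones 8 were ligands and 2 receptors, while 3 ligands and 9 receptors were called lower. The median log2 fold change was 0.04 over 35 ligands and -0.11 over 34 receptors, beside -0.01 over all genes. All 5 nlsYAP5SA samples lay above all 5 controls in 11 members (6.5% of all genes) and below them in 12 members (3.57% of all genes). Fewer cells of a type and less RNA per cell cannot be told apart in these bulk samples.

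**Figure D1:**
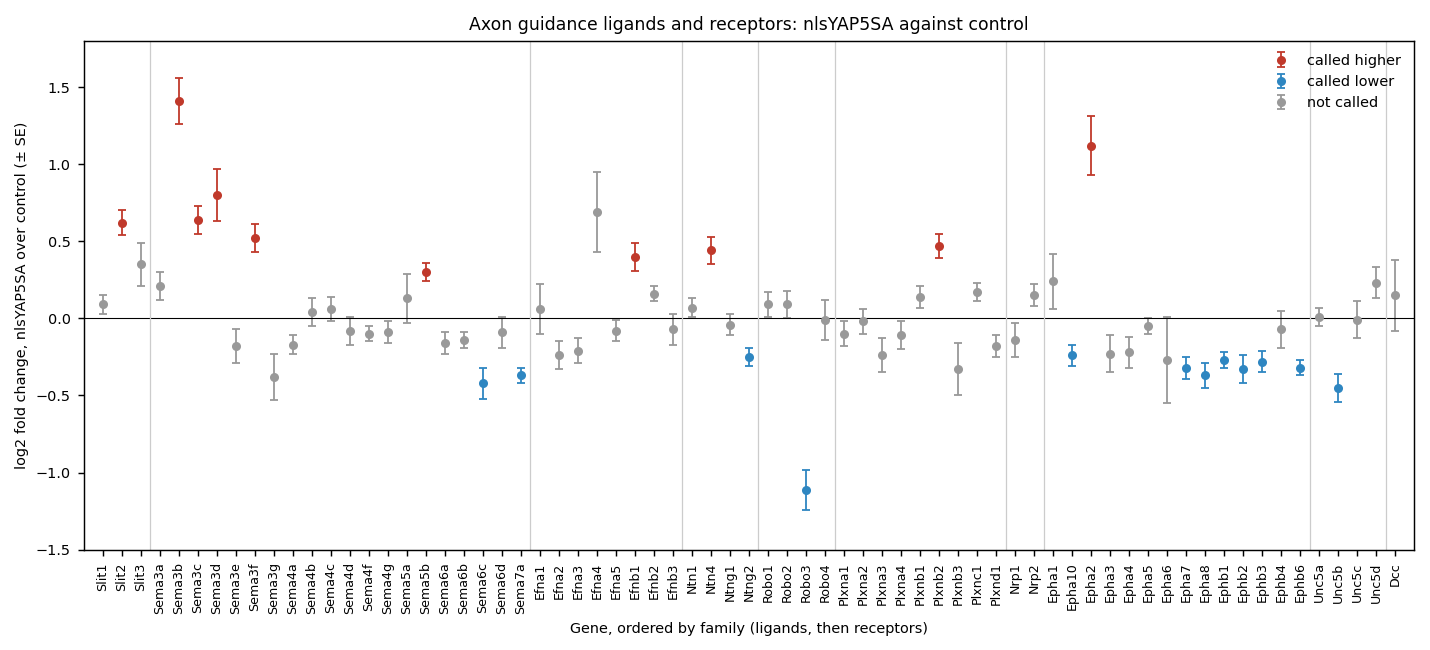
Log2 fold change with its SE for the 69 members tested, nlsYAP5SA (n = 5) over control (n = 5) on the vertical axis, by gene and family on the horizontal axis. Colours mark the 10 members called higher, the 12 called lower and those not called. Sema3b has the highest value, 1.41, and Robo3 the lowest, -1.11.

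With Y-linked RNA as a covariate in the model, 5 members were called higher and 4 lower, beside 3.32% of all genes. The calls of Sema3d, Sema5b, Efnb1, Ntn4 and Plxnb2 among the higher, and of Sema6c, Ntng2, Unc5b, Epha7, Epha8, Epha10, Ephb2 and Ephb3 among the lower, were lost. In the 7 samples with Y-linked RNA alone (5 controls and 2 nlsYAP5SA mice), 2 members were called higher and 1 lower, namely Sema3b, Slit2 and Robo3, beside 1.97% of all genes. Log2 fold changes with the covariate were 0.84 in Sema3d (0.80 without it), 0.33 in Efnb1 (0.40), -0.29 in Epha7 (-0.32) and -0.22 in Ephb2 (-0.33). In the samples with Y-linked RNA alone they were 1.02 in Epha2 (1.12 in all samples), 0.57 in Sema3c (0.64), -0.36 in Sema7a (-0.37) and -0.31 in Epha7 (-0.32). An effect of sex and the lower precision of these fits cannot be told apart. With an ordinary loess offset for GC content and length, 10 members were called higher and 22 lower, beside 19.2% of all genes. Of the calls over all genes 39% were then higher, against 68.1% without it. With the robust loess form of this offset, 12 members were called higher and 13 lower, beside 14% of all genes. In that fit 62.5% of the calls over all genes were higher. The log2 fold changes of the 22 called members kept their sign in all 24 alternatives.

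Among the Slit ligands, which are secreted repellents, only Slit2 passed the test. Slit2 (ENSMUSG00000031558, chr5:47983138-48307733) was at 32.9, 37.3, 44.1, 40.3 and 42.5 CPM in control replicates 1 to 5, 54.6, 62.2, 54.9, 68.4 and 62.9 in nlsYAP5SA replicates 1 to 5 and 37.2, 28.7 and 54.6 in C57BL/6 replicates 1 to 3. Each nlsYAP5SA sample lay above each control, and C57BL/6 replicate 3 was level with the lowest nlsYAP5SA samples. This gave a log2 fold change of 0.62 ± 0.08 (SE, edgeR adjusted p = 4.6e-04), and the call held in all 24 alternatives. Slit1, the most abundant Slit per length, was at 42.2, 42.8, 48.7, 43.3 and 47 CPM in control replicates 1 to 5, 47.5, 48.3, 44.3, 46.8 and 51.7 in nlsYAP5SA replicates 1 to 5 and 43.8, 31 and 56.9 in C57BL/6 replicates 1 to 3. Its groups overlapped, and its test gave a log2 fold change of 0.09 ± 0.06 (SE, edgeR adjusted p = 0.364). Slit3 had a log2 fold change of 0.35 ± 0.14 (SE, edgeR adjusted p = 0.143). The summed level of the 3 Slit genes was 108 ± 12.3 CPM (SD, n = 5) in controls, 139 ± 10.2 in nlsYAP5SA mice and 107 ± 33.6 (n = 3) in C57BL/6 mice.

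Class 3 semaphorins, the secreted semaphorins, held 4 of the 10 members called higher. Sema3b and Sema3f act on neuropilin receptors, and both lie on chromosome 9. Robo3, Sema7a and Ephb1, which were called lower, lie on that chromosome too. Sema3b (ENSMUSG00000057969, chr9:107597674-107609229) was at 2.33, 2.51, 1.75, 2.23 and 2.55 CPM in control replicates 1 to 5, 6.73, 5.6, 6.41, 4.52 and 7.12 in nlsYAP5SA replicates 1 to 5 and 2.02, 2.54 and 2.26 in C57BL/6 replicates 1 to 3. The lowest nlsYAP5SA sample, replicate 4, was still above the highest control. The test gave a log2 fold change of 1.41 ± 0.15 (SE, edgeR adjusted p = 6.3e-05), which held in all 24 alternatives. Sema3f was at 13.7, 11.1, 10.8, 10.5 and 10.5 CPM in control replicates 1 to 5, 16.4, 15.4, 15.6, 17 and 16.6 in nlsYAP5SA replicates 1 to 5 and 11.2, 8.39 and 11.3 in C57BL/6 replicates 1 to 3. All nlsYAP5SA samples were above the controls, of which replicate 1 stood above the rest. The difference was a log2 fold change of 0.52 ± 0.09 (SE, edgeR adjusted p = 0.00187).

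Sema3c, which binds neuropilins and plexin D1, and Sema3d lie on chromosome 5 with Slit2. Sema3a and Sema3e, which were not called in the main test, lie on that chromosome too. Sema3c was at 39.4, 50.6, 55.3, 43 and 45.1 CPM in control replicates 1 to 5, 79, 73.2, 63.4, 75.4 and 73.4 in nlsYAP5SA replicates 1 to 5 and 42.4, 36.5 and 52.2 in C57BL/6 replicates 1 to 3. The groups did not overlap, with nlsYAP5SA replicate 3 closest to the controls, and the test gave a log2 fold change of 0.64 ± 0.09 (SE, edgeR adjusted p = 4.1e-04). Sema3d was at 9.16, 12.8, 20.5, 13 and 17.4 CPM in control replicates 1 to 5, 23.1, 26.5, 23.3, 28 and 26 in nlsYAP5SA replicates 1 to 5 and 13.3, 10.4 and 19.5 in C57BL/6 replicates 1 to 3. Its control values varied more, from replicate 1, the lowest, to replicate 3, which lay just under the nlsYAP5SA samples. The test gave a log2 fold change of 0.80 ± 0.17 (SE, edgeR adjusted p = 0.00807), a call lost with Y-linked RNA as a covariate. Sema3a, 3e and 3g, the other class 3 genes, had log2 fold changes of 0.21, -0.18 and -0.38 and were not called in the main test. Sema3e was called lower with either loess offset. Summed over 7 class 3 genes, the level was 148 ± 17.8 CPM (SD, n = 5) in controls and 194 ± 10.5 in nlsYAP5SA mice, with 146 ± 27.7 (n = 3) in C57BL/6 mice.

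**Figure D2:**
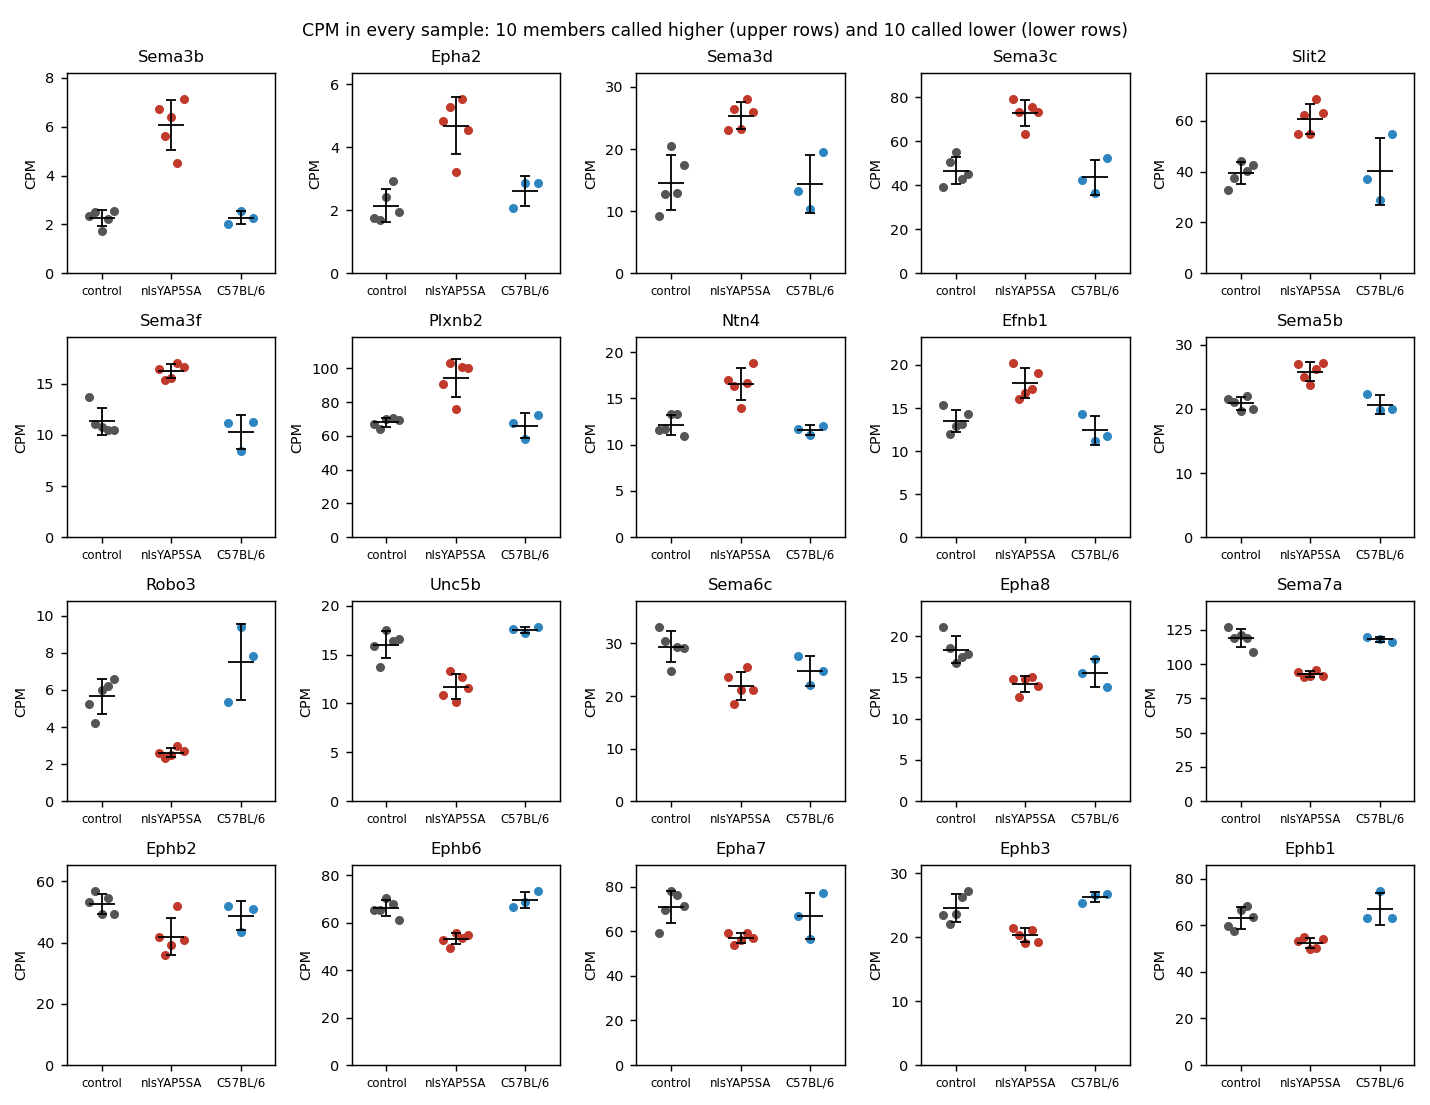
CPM on the vertical axis for each sample of the control, nlsYAP5SA and C57BL/6 groups on the horizontal axis, with the mean and SD as bars, for the 10 members called higher and the 10 largest falls. In Sema3b the nlsYAP5SA samples sit between 4.52 and 7.12 CPM, above all others, and in Robo3 between 2.35 and 2.96, below all others.

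Of the membrane-bound semaphorins 1 was called higher and 2 lower. Sema5b, a transmembrane semaphorin with thrombospondin repeats, was at 21.6, 21.1, 19.6, 22 and 19.9 CPM in control replicates 1 to 5, 27, 25, 23.7, 26.2 and 27.1 in nlsYAP5SA replicates 1 to 5 and 22.3, 19.8 and 19.9 in C57BL/6 replicates 1 to 3. All nlsYAP5SA samples lay above all others, with a log2 fold change of 0.30 ± 0.06 (SE, edgeR adjusted p = 0.00655). Sema7a, a GPI-anchored ligand of plexin C1 and integrins, was the most abundant semaphorin per length, at 36.1 CPM per kb of exons in controls. It was at 127, 119, 121, 119 and 109 CPM in control replicates 1 to 5, 94, 90.5, 91, 95.5 and 91.2 in nlsYAP5SA replicates 1 to 5 and 120, 118 and 116 in C57BL/6 replicates 1 to 3. The nlsYAP5SA samples lay below all others and close together, and the test gave a log2 fold change of -0.37 ± 0.05 (SE, edgeR adjusted p = 4.5e-04). Sema6c, a transmembrane semaphorin, was at 33.1, 30.5, 24.8, 29.4 and 29.2 CPM in control replicates 1 to 5, 23.6, 18.5, 21.1, 25.5 and 21.1 in nlsYAP5SA replicates 1 to 5 and 27.7, 22 and 24.7 in C57BL/6 replicates 1 to 3. Its groups overlapped, since nlsYAP5SA replicate 4 exceeded control replicate 3, and the C57BL/6 samples overlapped both. The difference was a log2 fold change of -0.42 ± 0.10 (SE, edgeR adjusted p = 0.0132). Of the 6 class 4 genes none was called in the main edgeR test, with 1 (Sema4a) at unadjusted p ≤ 0.05 and 0 called by DESeq2. Sema4a was at 23.1 to 24.5 CPM in the nlsYAP5SA samples, below the controls at 24.9 to 29.1. It was called lower with the ordinary loess offset. Sema6a was called lower with either loess offset, Sema6d with the ordinary one and Sema6b by DESeq2 and without nlsYAP5SA replicate 3.

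Efnb1, a transmembrane ephrin on the X chromosome, was at 15.3, 12, 12.9, 13.1 and 14.3 CPM in control replicates 1 to 5, 20.2, 16, 16.8, 17.2 and 19.1 in nlsYAP5SA replicates 1 to 5 and 14.3, 11.2 and 11.7 in C57BL/6 replicates 1 to 3. Each nlsYAP5SA sample lay above each control, with nlsYAP5SA replicate 2 and control replicate 1 the closest. The test gave a log2 fold change of 0.40 ± 0.09 (SE, edgeR adjusted p = 0.011), a call lost with Y-linked RNA as a covariate. Efnb3 was the most abundant member per length, at 50.4 CPM per kb of exons in controls, and was at 191, 176, 140, 146 and 149 CPM in control replicates 1 to 5, 171, 128, 158, 156 and 152 in nlsYAP5SA replicates 1 to 5 and 168, 140 and 141 in C57BL/6 replicates 1 to 3. Its samples overlapped across the groups, with a log2 fold change of -0.07 ± 0.10 (SE, edgeR adjusted p = 0.712). Efnb2 was at 68, 73.3, 76.4, 73.8 and 75.9 CPM in control replicates 1 to 5, 81.6, 80.5, 83.1, 87.8 and 77.9 in nlsYAP5SA replicates 1 to 5 and 71.5, 60.9 and 73.8 in C57BL/6 replicates 1 to 3. Its nlsYAP5SA samples lay above the controls, but it missed the threshold with a log2 fold change of 0.16 ± 0.05 (SE, edgeR adjusted p = 0.0505). It was called higher by DESeq2, with Ttr as a covariate and with the robust loess offset. None of the 5 A-class ephrins was called in the main edgeR test, with 3 at unadjusted p ≤ 0.05 and 0 called by DESeq2. With the ordinary loess offset Efna2 and Efna3 were called lower.

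Ntn4, a netrin of basement membranes, was at 11.6, 11.7, 13.3, 13.3 and 10.9 CPM in control replicates 1 to 5, 17, 16.3, 14, 16.7 and 18.8 in nlsYAP5SA replicates 1 to 5 and 11.7, 11 and 12 in C57BL/6 replicates 1 to 3. All nlsYAP5SA samples exceeded all others, with replicate 3 the closest to them, and the test gave a log2 fold change of 0.44 ± 0.09 (SE, edgeR adjusted p = 0.00594). Ntng2, a GPI-anchored netrin that stays on the axon surface, was the most abundant netrin per length. It was at 30.2, 29.2, 30, 32.7 and 28.6 CPM in control replicates 1 to 5, 23, 25.3, 26.1, 27.1 and 25.7 in nlsYAP5SA replicates 1 to 5 and 29.1, 26.2 and 30.1 in C57BL/6 replicates 1 to 3. The nlsYAP5SA samples lay below the controls, while C57BL/6 replicate 2 fell among them. The test gave a log2 fold change of -0.25 ± 0.06 (SE, edgeR adjusted p = 0.0211), a call lost in 9 of 24 alternatives. Among them were the fits without control replicate 4, nlsYAP5SA replicate 1 or nlsYAP5SA replicate 5, and without control replicates 1 and 3 together. Ntng2 was also not called with Y-linked RNA or Ttr as a covariate, in the samples with Y-linked RNA alone and with the robust loess offset. Its exons share 14% of their length with another transcript on the same strand, so its counts are uncertain. Genes on the opposite strand overlap 14.1% of the exons of Efna3, 10.7% of Plxna1, 10.5% of Efna4 and 23.4% of Ntn5. Since the strand setting of the counting is not given, those counts may be uncertain too. Ntn1, the classical attractant for Dcc, had a log2 fold change of 0.07 ± 0.06 (SE, edgeR adjusted p = 0.523). Ntn5 was removed by the filter, with at most 10 counts in any sample.

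Of the receptors, Epha2 and Plxnb2 were called higher. Epha2, a receptor tyrosine kinase for A-class ephrins, was among the least abundant members. Epha2 (ENSMUSG00000006445, chr4:141301240-141329384) was at 1.76, 1.68, 2.42, 2.94 and 1.94 CPM in control replicates 1 to 5, 4.84, 5.27, 3.21, 5.52 and 4.54 in nlsYAP5SA replicates 1 to 5 and 2.06, 2.88 and 2.87 in C57BL/6 replicates 1 to 3. The nlsYAP5SA samples lay above all others, with replicate 3 the lowest, and the test gave a log2 fold change of 1.12 ± 0.19 (SE, edgeR adjusted p = 0.00173). Its counts were between 41 and 127 in a sample. Plxnb2, a receptor of class 4 semaphorins, was at 66.8, 64, 69.8, 70.4 and 69.2 CPM in control replicates 1 to 5, 90.9, 103, 75.9, 101 and 100 in nlsYAP5SA replicates 1 to 5 and 67.9, 58.2 and 72.3 in C57BL/6 replicates 1 to 3. The nlsYAP5SA samples exceeded the rest, with replicate 3 closest to them, at a log2 fold change of 0.47 ± 0.08 (SE, edgeR adjusted p = 0.00165). Plxna1, the most abundant plexin per length, was at 218, 205, 226, 210 and 204 CPM in control replicates 1 to 5, 201, 183, 166, 238 and 201 in nlsYAP5SA replicates 1 to 5 and 184, 138 and 234 in C57BL/6 replicates 1 to 3. Its groups overlapped, with a log2 fold change of -0.10 ± 0.08 (SE, edgeR adjusted p = 0.481). Nrp2, the more abundant neuropilin per length, was at 68.2, 71.1, 61.5, 66.3 and 76.1 CPM in control replicates 1 to 5, 72.8, 76.9, 69.8, 85.1 and 77.3 in nlsYAP5SA replicates 1 to 5 and 74, 58.7 and 68.9 in C57BL/6 replicates 1 to 3, with overlapping groups and a log2 fold change of 0.15 ± 0.07 (SE, edgeR adjusted p = 0.196). The 2 neuropilins summed to 106 ± 6.42 CPM (SD, n = 5) in controls and 111 ± 10.3 in nlsYAP5SA mice, and the 4 A-class plexins to 549 ± 40 and 516 ± 50, with overlap in both. The other plexins and Nrp1 were not called in the main test. With the ordinary loess offset Nrp1 and Plxna4 were called lower, and with the robust loess offset Plxnb1 was called higher. Without nlsYAP5SA replicate 4, Plxna3 and Plxnd1 were called lower.

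Robo3, a receptor in commissural axons, had the largest fall. Robo3 (ENSMUSG00000032128, chr9:37415669-37433246) was at 5.23, 4.23, 6, 6.21 and 6.61 CPM in control replicates 1 to 5, 2.62, 2.35, 2.47, 2.96 and 2.72 in nlsYAP5SA replicates 1 to 5 and 5.34, 9.39 and 7.83 in C57BL/6 replicates 1 to 3. The highest nlsYAP5SA sample was below the lowest control, and the C57BL/6 samples overlapped or exceeded the controls. This gave a log2 fold change of -1.11 ± 0.13 (SE, edgeR adjusted p = 1.8e-04), and the call held in all 24 alternatives. Robo2, the most abundant Robo receptor per length, was at 166, 213, 245, 219 and 213 CPM in control replicates 1 to 5, 211, 231, 211, 244 and 226 in nlsYAP5SA replicates 1 to 5 and 210, 143 and 250 in C57BL/6 replicates 1 to 3. The groups overlapped, control replicate 1 being the lowest control, and the test gave a log2 fold change of 0.09 ± 0.09 (SE, edgeR adjusted p = 0.59). Summed, Robo1 and Robo2 were at 305 ± 39.7 CPM (SD, n = 5) in controls and 324 ± 20.8 in nlsYAP5SA mice, with overlap. Robo1 and Robo4 had log2 fold changes of 0.09 and -0.01, so that of the 4 Robo genes 1 was called.

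Eph receptors held 7 of the 12 members called lower, against 1 of the 10 called higher. With Y-linked RNA as a covariate the called Eph receptors were Epha2, Ephb1 and Ephb6. Of the 5 B-class genes 4 were called lower, and their summed level was 215 ± 7.73 CPM (SD, n = 5) in controls, 176 ± 7.07 in nlsYAP5SA mice and 221 ± 3.58 (n = 3) in C57BL/6 mice. The sum was 210, 209, 219, 227 and 211 CPM in control replicates 1 to 5 and 178, 169, 170, 186 and 178 in nlsYAP5SA replicates 1 to 5. The 2 sets did not overlap. The 9 A-class receptors summed to 593 ± 61.7 CPM (SD, n = 5) in controls and 527 ± 20.4 in nlsYAP5SA mice, and these groups overlapped. The receptor with no kinase activity, Ephb6, was at 65.6, 65.5, 70.4, 68.1 and 61.3 CPM in control replicates 1 to 5, 52.7, 49.5, 55.6, 53.7 and 54.8 in nlsYAP5SA replicates 1 to 5 and 66.5, 68.8 and 73.4 in C57BL/6 replicates 1 to 3. All its nlsYAP5SA values lay below the others, with a log2 fold change of -0.32 ± 0.05 (SE, edgeR adjusted p = 0.00128). Ephb1, an active kinase, was at 59.5, 57.6, 66.5, 68.3 and 63.7 CPM in control replicates 1 to 5, 53.3, 54.9, 49.7, 50.4 and 53.9 in nlsYAP5SA replicates 1 to 5 and 63, 74.7 and 63.2 in C57BL/6 replicates 1 to 3. Those samples too lay below the rest, with a log2 fold change of -0.27 ± 0.05 (SE, edgeR adjusted p = 0.00711).

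Ephb3 was at 23.5, 22, 23.6, 26.3 and 27.2 CPM in control replicates 1 to 5, 21.5, 20.4, 19.1, 21.1 and 19.2 in nlsYAP5SA replicates 1 to 5 and 25.3, 26.6 and 26.7 in C57BL/6 replicates 1 to 3. The nlsYAP5SA samples were below the controls, with nlsYAP5SA replicate 1 and control replicate 2 nearly level, and the test gave a log2 fold change of -0.28 ± 0.07 (SE, edgeR adjusted p = 0.0226). That call was lost in 8 of 24 alternatives. Among them were the fits without control replicate 4 or 5 and without nlsYAP5SA replicate 2 or 5. The call was also lost with Y-linked RNA as a covariate, in the samples that have it alone and with library size as the only scaling. Ephb2 was at 53.1, 56.8, 49.4, 54.6 and 49.4 CPM in control replicates 1 to 5, 41.8, 35.8, 39.1, 52 and 40.8 in nlsYAP5SA replicates 1 to 5 and 51.9, 43.3 and 51.1 in C57BL/6 replicates 1 to 3. Its nlsYAP5SA replicate 4 lay among the controls, and the test gave a log2 fold change of -0.33 ± 0.09 (SE, edgeR adjusted p = 0.0302). This call was lost without control replicate 2 or 4 and without nlsYAP5SA replicate 1, 2, 3 or 5, without control replicates 1 and 3 together, with Y-linked RNA or Ttr as a covariate, in the samples with Y-linked RNA alone and with the robust loess offset. Ephb4 was not called, with a log2 fold change of -0.07 ± 0.12 (SE).

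Of the 9 A-class receptors 3 were called lower and 1, Epha2, higher. Epha8 was at 21.1, 18.6, 16.8, 17.5 and 17.8 CPM in control replicates 1 to 5, 14.8, 12.6, 14.8, 15 and 14 in nlsYAP5SA replicates 1 to 5 and 15.5, 17.2 and 13.9 in C57BL/6 replicates 1 to 3. The nlsYAP5SA samples were below the controls, whereas C57BL/6 replicate 3 was among them, and the test gave a log2 fold change of -0.37 ± 0.08 (SE, edgeR adjusted p = 0.0107). Epha7 was at 59.4, 69.6, 78, 76.2 and 71.1 CPM in control replicates 1 to 5, 59.1, 54, 55.9, 59.2 and 56.8 in nlsYAP5SA replicates 1 to 5 and 66.8, 56.6 and 77 in C57BL/6 replicates 1 to 3. Its nlsYAP5SA samples were below the controls, with nlsYAP5SA replicate 4 nearly level with control replicate 1, and C57BL/6 replicate 2 was among them. The test gave a log2 fold change of -0.32 ± 0.07 (SE, edgeR adjusted p = 0.00759). Epha10, which has no active kinase, had a log2 fold change of -0.24 ± 0.07 (SE, edgeR adjusted p = 0.0459), lost in 19 of 24 alternatives, among them the loss of any 1 sample, with log2 fold changes from -0.30 to -0.19. Epha4, the most abundant Eph receptor per length, was at 180, 219, 280, 274 and 238 CPM in control replicates 1 to 5, 195, 207, 197, 211 and 214 in nlsYAP5SA replicates 1 to 5 and 227, 204 and 293 in C57BL/6 replicates 1 to 3. The groups overlapped, with control replicate 1 below all nlsYAP5SA samples, and it was not called at a log2 fold change of -0.22 ± 0.10 (SE, edgeR adjusted p = 0.197). Without control replicate 1, and with either loess offset, it was called lower. Epha3, not called in the main test, was also called lower with either loess offset.

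Netrin receptors of the Unc5 family mediate repulsion. Unc5b was at 15.9, 13.7, 17.5, 16.4 and 16.6 CPM in control replicates 1 to 5, 10.9, 13.3, 10.1, 12.7 and 11.6 in nlsYAP5SA replicates 1 to 5 and 17.6, 17.2 and 17.8 in C57BL/6 replicates 1 to 3. The nlsYAP5SA samples lay below the rest, with replicate 2 nearly level with the lowest control, at a log2 fold change of -0.45 ± 0.09 (SE, edgeR adjusted p = 0.00747). Unc5a, the most abundant of the 4 per length, was at 44.5, 40.3, 39.2, 42.9 and 44.1 CPM in control replicates 1 to 5, 45.6, 39.3, 44.2, 40.6 and 42.7 in nlsYAP5SA replicates 1 to 5 and 42.3, 41.8 and 42 in C57BL/6 replicates 1 to 3. The groups overlapped closely, with a log2 fold change of 0.01 ± 0.06 (SE, edgeR adjusted p = 0.96). Dcc was at 8.96, 16.6, 22.3, 14.6 and 17.4 CPM in control replicates 1 to 5, 11.4, 23.7, 14.5, 18.4 and 20.7 in nlsYAP5SA replicates 1 to 5 and 12.2, 7.72 and 25 in C57BL/6 replicates 1 to 3. It overlapped in all groups and gave a log2 fold change of 0.15 ± 0.23 (SE, edgeR adjusted p = 0.735).

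Per length the levels in controls ranged from 50.4 CPM per kb of exons in Efnb3 to 0.115 in Ntn5. The 5 highest members were Efnb3, Sema7a, Epha4, Sema6b and Plxna1. Of the members called higher, Epha2 was lowest at 0.459 CPM per kb in controls, followed by Sema3b at 0.476 and Slit2 at 1.55. Plxnb2 was highest at 8.81. The place of Slit2 depends on its 25.43 kb of merged exons, since its mean before that division was 39.4 CPM in controls. Robo3, at 0.826, was the least abundant of the members called lower, and Sema7a, at 36.1, the most.

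**Figure D3:**
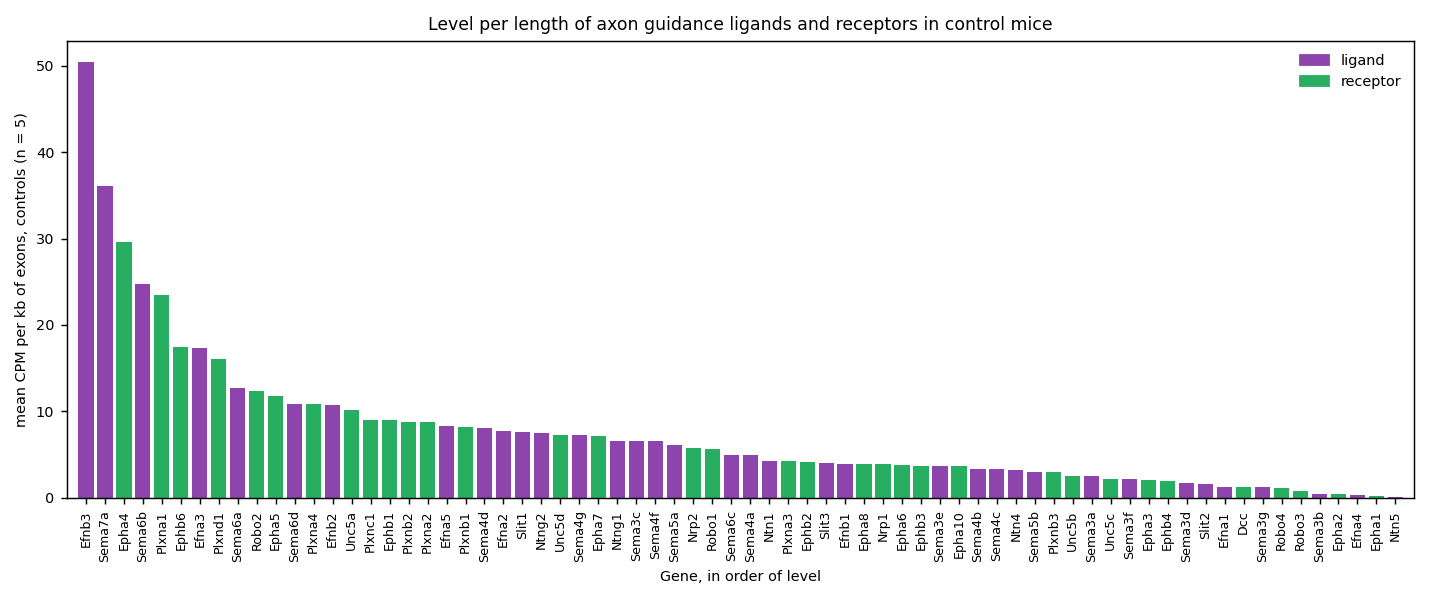
Mean CPM per kb of exons in the 5 controls on the vertical axis, for 70 members in order of level on the horizontal axis, with ligands and receptors in separate colours. Efnb3 is highest at 50.4 and Ntn5 lowest at 0.115.

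Other genes of the pathway were taken from a list of 68 mediators. These are further cues, receptors and co-receptors, together with adaptors and enzymes inside the cell. Against the controls 4 were called higher and 2 lower, so 8.82% were called, beside 10.8% of all genes. Neo1, a receptor for netrins and repulsive guidance molecules, had a log2 fold change of 0.21 ± 0.06 (SE, edgeR adjusted p = 0.0285). Cdon, a co-receptor that also binds netrins, had a log2 fold change of 0.62 ± 0.11 (SE, edgeR adjusted p = 0.00364). Cntn2, an axonal adhesion protein, had a log2 fold change of 0.24 ± 0.07 (SE, edgeR adjusted p = 0.0378), and Farp1, a cytoplasmic mediator, had a log2 fold change of 0.41 ± 0.05 (SE, edgeR adjusted p = 3.4e-04). Both Mical2, an enzyme that oxidises actin, at a log2 fold change of -0.35 ± 0.08 (SE, edgeR adjusted p = 0.0153), and Limk1, a kinase of cofilin, at a log2 fold change of -0.26 ± 0.05 (SE, edgeR adjusted p = 0.00684), were lower. Neo1 was lost in 13 of 24 alternatives and Cntn2 in 15, and with Y-linked RNA as a covariate only Farp1 was called. Without control replicate 2 or 5, or nlsYAP5SA replicate 1 or 5, 2 mediators were called higher, and without nlsYAP5SA replicate 1, 1 was called lower. With the ordinary loess offset 2 were called higher and 10 lower, and with Ttr as a covariate 4 lower. Against C57BL/6, 2 mediators were called higher, Farp1 and Vav2, and 2 lower, Mical2 and Limk1, beside 6.38% of all genes called. Neo1, Cdon and Cntn2 were not called there. Their log2 fold changes were 0.30, 0.52 and 0.35, at edgeR adjusted p of 0.138, 0.0949 and 0.0697.

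Promoters of 60 of the 70 members were in the RefSeq table (GRCm38.p6), as windows of 300 bases with 250 before the start. The letters GGAATG or CATTCC, the core recognised by TEAD factors, the DNA-binding partners of YAP1, were searched on both strands. They were in 15% of the members with a promoter, in 9 genes, and in 16.6% of all 27025 genes with one. Of the members called higher 1 of 8 with a promoter held them, of those called lower 0 of 12, and of those not called 8 of 40 (20%). The match of Epha2, the 1 called higher, is shown. Capitals mark the motif. A match is a description of the letters only.
Epha2, chr4:141301153-141301182, plus strand: cccctttaaagaCATTCCtgagggcgtggt

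The C57BL/6 mice served to ask whether the controls, which carry the transgene without Cre, differ from wild type. Against the controls, 0 of 69 members were called by edgeR in C57BL/6 mice, beside 0.169% of all genes, with 2 members at unadjusted p ≤ 0.05 and 0 called by DESeq2. Those 2, Epha8 and Sema6c, had log2 fold changes of -0.24 each. The group had 3 samples, and a p above the threshold does not show that levels were equal.

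Against C57BL/6, which shares the nlsYAP5SA samples with the comparison above, 15 of 69 members were called (6.38% of all genes), 9 higher (4.16%) and 6 lower (2.22%). Sema3b stood at 1.40 ± 0.18 (SE, edgeR adjusted p = 0.0019), Robo3 at -1.53 ± 0.18 (SE, edgeR adjusted p = 0.00126), Epha2 at 0.83 ± 0.20 (SE, edgeR adjusted p = 0.0419) and Sema7a at -0.37 ± 0.05 (SE, edgeR adjusted p = 0.00414). Of the members called against the controls, 7 were not called here. They were Slit2 at 0.58 ± 0.18 (SE, edgeR adjusted p = 0.091), Epha8 at -0.14 ± 0.10 (SE, edgeR adjusted p = 0.454), Sema6c at -0.19 ± 0.11 (SE, edgeR adjusted p = 0.371), Epha7 at -0.24 ± 0.09 (SE, edgeR adjusted p = 0.161), Epha10 at -0.28 ± 0.09 (SE, edgeR adjusted p = 0.117), Ephb2 at -0.23 ± 0.11 (SE, edgeR adjusted p = 0.282) and Ntng2 at -0.17 ± 0.08 (SE, edgeR adjusted p = 0.239). No A-class Eph receptor was thus called lower. The count of higher calls was 4, 3 and 14 without C57BL/6 replicate 1, 2 and 3, and 5, 5 and 4 without nlsYAP5SA replicate 1, 2 and 5. With either loess offset 10 members were called lower. With Y-linked RNA as a covariate 7 members were called higher and 6 lower.

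Some markers of other cell types moved with genotype, and their part in the results above was not tested. Their calls stand beside 10.8% of all genes called in either direction. Of the summed levels given below, only that of microglia and macrophages did not overlap between nlsYAP5SA and control samples. Microglia and macrophage markers were called higher in 8 of 9 genes. Their summed level was 318, 305, 348, 383 and 365 CPM in control replicates 1 to 5, 534, 564, 452, 543 and 588 in nlsYAP5SA replicates 1 to 5 and 351, 384 and 320 in C57BL/6 replicates 1 to 3. All nlsYAP5SA samples were above all others. Of 9 astrocyte markers 4 were called higher and 1 lower, Slc1a2 was the most abundant, and the sum was 3326, 3836, 5781, 5034 and 5160 CPM in control replicates 1 to 5, 5666, 7218, 5715, 5168 and 6615 in nlsYAP5SA replicates 1 to 5 and 4417, 4564 and 5869 in C57BL/6 replicates 1 to 3. Gfap averaged 181 CPM in controls and 754 in nlsYAP5SA mice.

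Endothelial markers were called lower in 3 of 8 genes, Cldn5 being the most abundant, and summed to 227, 229, 268, 270 and 268 CPM in control replicates 1 to 5, 206, 250, 190, 230 and 242 in nlsYAP5SA replicates 1 to 5 and 267, 253 and 252 in C57BL/6 replicates 1 to 3. Excitatory neuron markers were called lower in 2 of 10, with Camk2a the most abundant, and summed to 2522, 2581, 3170, 3251 and 3045 CPM in control replicates 1 to 5, 2684, 2764, 2826, 2273 and 2664 in nlsYAP5SA replicates 1 to 5 and 2738, 2842 and 2944 in C57BL/6 replicates 1 to 3. The groups overlapped in both. The 2 genes were Cux2 and Neurod6, of which Neurod6 carries the Cre allele, so that loss of an allele and a change in these neurons cannot be told apart in it. Of the 8 ependymal markers 2 were called higher, with Foxj1 the most abundant, and the sum was 33.7, 26.5, 19.1, 16.6 and 17.9 CPM in control replicates 1 to 5, 35.1, 34.8, 33.8, 30.1 and 33.7 in nlsYAP5SA replicates 1 to 5 and 23.7, 26.1 and 24.8 in C57BL/6 replicates 1 to 3. Control replicate 1 was within the nlsYAP5SA range. Radial glia and progenitor markers were called higher in 3 of 8, with Fabp7 the most abundant, and summed to 474, 448, 349, 380 and 364 CPM in control replicates 1 to 5, 423, 373, 371, 571 and 430 in nlsYAP5SA replicates 1 to 5 and 430, 364 and 285 in C57BL/6 replicates 1 to 3. Mural cell and fibroblast markers were called higher in 3 and lower in 3 of 9, Rgs5 being the most abundant, and summed to 389, 440, 493, 517 and 496 CPM in control replicates 1 to 5, 430, 478, 333, 502 and 504 in nlsYAP5SA replicates 1 to 5 and 542, 506 and 476 in C57BL/6 replicates 1 to 3. The groups overlapped in both lists. None of the genes on these lists was at 0 in every sample.

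In the remaining lists, 1 of 7 hippocampal neuron markers was called higher and 1 lower. Lower calls were made for 1 of 8 interneuron and 1 of 6 oligodendrocyte precursor markers. With 10.8% of all genes called, 1 call in a list this short is not read as a change of its cell type. Of 8 oligodendrocyte markers 1, Ermn, was called lower, and the log2 fold changes of all 8 were negative, from -0.88 to -0.35. Mbp was the most abundant, and the sum was 2330, 2156, 3609, 3488 and 3360 CPM in control replicates 1 to 5, 1786, 2970, 2339, 1386 and 2206 in nlsYAP5SA replicates 1 to 5 and 3089, 4799 and 3449 in C57BL/6 replicates 1 to 3. The groups overlapped. Of 8 choroid plexus markers 1, Folr1, was called higher, Enpp2 was the most abundant, and the sum was 360, 118, 157, 156 and 308 CPM in control replicates 1 to 5, 462, 541, 318, 118 and 222 in nlsYAP5SA replicates 1 to 5 and 138, 335 and 487 in C57BL/6 replicates 1 to 3. These groups overlapped too. Of the 7 blood cell markers, 5 were tested and 0 were called by edgeR.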

How the data were processed

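RNA came from 13 right hemispheres. The authors deposited estimated counts per gene from RSEM 1.3.0, after cutadapt 1.5 and STAR alignment to GRCm38 per the labels, without normalization. A strand setting is not given in the sources used here. The 13 columns were matched to samples by their labels. Counts were rounded, filtered with filterByExpr (minimum count 10, minimum total 15), normalized with TMM and tested with the quasi-likelihood test of edgeR 4.0.16 in R 4.3.3, two-sided, at a Benjamini-Hochberg adjusted p of 0.05 over all genes tested. The SE of an edgeR log2 fold change was derived from the test, as its absolute value over the square root of the F statistic. CPM uses the TMM factors of all 13 samples, and a level per length divides it by merged exons of GENCODE M21. Alternatives used DESeq2 1.42.0, other filters and scalings, covariates, loess offsets for GC content and length (span 0.3), and samples left out. Named genes were the called members, the most abundant of each family, the called mediators, Yap1 and Neurod6. Members and lists were chosen with earlier results of these data known. The tests were checked on simulated counts.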

Additional observations from a re-analysis of the deposited data

Results flagged for a closer look

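Of 76 groups of 5 samples tested among the named genes, 3 had a sample far from the others, where chance gives about 1 in 20. Epha10 was at 28.7 CPM in control replicate 1, with the other controls between 25.1 and 25.9, and at 19.2 CPM in nlsYAP5SA replicate 4, with the others between 22.1 and 23.3. Sema3f was at 13.7 CPM in control replicate 1, with the others between 10.5 and 11.1.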

How the results depend on the processing

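Of the 22 called members, 3 were called under all 24 alternatives, Sema3b, Slit2 and Robo3, 15 were lost under 1 or 2, and 4 (Epha10, Ephb2, Ephb3 and Ntng2) under more. No log2 fold change of a called member changed sign. Y-linked RNA as a covariate gave 5 members higher and 4 lower, 1 mediator higher and 0 lower, and 542 calls over all genes. The samples with counts of Y-linked genes alone, chosen after seeing the data, gave 2 members higher and 1 lower, 0 mediators in either direction and 334 calls, with fewer samples. The ordinary loess offset gave 22 members lower, 2 mediators higher, 10 mediators lower and 3125 calls over all genes, of which 39% were higher, against 68.1% in the main test, and 10 members lower against C57BL/6. The robust loess offset also gave 10 members lower there. The cause was not tested. Mediators called higher were 2 with all 13 samples in a single fit, with no filter and without control replicates 1 and 3, also chosen after seeing the data, which gave 1162 calls over all genes. The Ttr covariate gave 4 mediators lower.

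Leaving out 1 sample gave 10 members higher and 8 to 13 lower, 2 to 4 mediators higher and 1 to 3 lower, and 1210 to 1891 calls over all genes. Against C57BL/6 it gave 3 to 14 members higher and 5 to 6 lower. The replicate number as a block gave 10 members higher, 9 lower and 2 mediators higher. Epha10, Ephb3 and Ntng2 were no longer called with this block. Against C57BL/6, where the block keeps 3 samples a group, it gave 0 higher and 0 lower. The same numbers do not pair the samples, as the correlations of deviations between control and nlsYAP5SA samples of one number were 0.312, -0.162, -0.315, -0.0889 and 0.114, and 1 of 5 controls correlated best with its own number.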
